A study of Mus musculus with 6 samples.

Results

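Open chromatin was described at the genes of the urokinase system, Plaur, Plau and Plat, and at Cd44, in mouse intestinal organoids. A peak was taken when its centre lay within 50 kb of an annotated end of one of these genes and nearer to it than to any other protein-coding gene. The rule found 34 of the 90823 consensus peaks, of which 7 belonged to Plaur, 6 to Plau, 6 to Plat and 15 to Cd44. All 34 passed the filter on low counts. The measure was ATAC-seq, in which a transposase cuts accessible DNA, so a count is a number of read pairs from open chromatin and not a level of RNA or protein.

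The organoids, epithelial cultures grown from mouse crypts in Matrigel, were treated for 3 days. One group received arachidonic acid (AA) at 25 µM, a fatty acid from which cells make prostaglandins. Another received PGE2 at 50 nM, which the treatment protocol calls PGE2 and the design text calls a dimethyl form of it. The last received vehicle. Each of these 3 groups, AA, PGE2 and Vehicle, had 2 libraries. The medium of all of them held EGF, Noggin, R-spondin, the GSK3 inhibitor CHIR-99021 and the kinase inhibitor Y-27632, of which R-spondin and CHIR-99021 act on the Wnt pathway. Strain, age and genotype were not given in the sources used here. Epithelial cells were sorted before the transposase reaction. The labels do not say that the libraries came from separate cultures, and the p-values measure the spread between these libraries, which may be technical.

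Plasminogen is an inactive protease that cells cut to plasmin, which digests fibrin and the proteins of the matrix. Plau encodes urokinase (uPA) and Plat tissue plasminogen activator (tPA), the enzymes that make this cut. Plaur encodes uPAR, a lipid-anchored receptor that holds urokinase on the cell surface, also at the edge of migrating epithelium. Cd44 encodes a receptor for the matrix sugar hyaluronan, is known as a Wnt target in the intestine, and is carried by cells at the base of the crypt.

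RefSeq promoter sequences (GRCm38.p6, from 250 bases before to 50 after the start site) were at hand for 2 of the 4 genes and are shown because the start-site peak of each passed no test while other peaks of the same gene did. The Plaur promoter lies at chr7:24462233-24462532 on the plus strand and the Cd44 promoter at chr2:102901616-102901915 on the minus strand. Capitals mark motif matches.
Plaur promoter: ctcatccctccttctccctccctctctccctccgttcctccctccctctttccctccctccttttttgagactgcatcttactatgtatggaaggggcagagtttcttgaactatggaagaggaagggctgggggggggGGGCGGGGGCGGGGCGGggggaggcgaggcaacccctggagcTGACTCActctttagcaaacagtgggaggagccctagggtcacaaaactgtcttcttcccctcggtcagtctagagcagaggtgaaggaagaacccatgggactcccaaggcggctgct
Cd44 promoter: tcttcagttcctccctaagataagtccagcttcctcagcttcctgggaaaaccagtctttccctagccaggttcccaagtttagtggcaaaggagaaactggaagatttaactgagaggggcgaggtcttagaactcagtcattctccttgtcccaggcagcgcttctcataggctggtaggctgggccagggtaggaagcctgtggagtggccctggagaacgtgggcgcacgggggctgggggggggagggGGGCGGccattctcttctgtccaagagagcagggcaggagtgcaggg
Both strands were searched for TGANTCA (AP-1), TGACGTCA (CRE), GGAATG (TEAD), CTTTGAT (TCF/LEF), TGTGGTT (RUNX) and GGGCGG (GC box). The Plaur promoter held TGACTCA with its first base at position -69 from the start site, and 7.81% of 32851 promoters held an AP-1 match. It also held 3 GC boxes, at -111, -105 and -100, the last pair sharing a base. The Cd44 promoter held 1 GC box, which began at +4, and 35.7% of all promoters held at least one. The other motifs had no match in either sequence. They occurred in 1.79% (CRE), 14.7% (TEAD), 3.73% (TCF/LEF) and 5.27% (RUNX) of all promoters.

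The libraries held 12374232 to 14236985 counts. Over all peaks, the libraries of AA and of Vehicle differed by little more than sampling noise, with a chi-square per degree of freedom of 1.12 and 1.1. The PGE2 libraries differed by more, at 1.55. All 10 epithelial markers, among them Epcam and Vil1, had a peak within 1 kb of a gene end, and their summed CPM (counts scaled to a common library total) were 706 to 707 in AA, 679 to 703 in PGE2 and 688 to 696 in Vehicle. Such peaks were found for 1 of 9 stromal, 2 of 7 endothelial and 2 of 10 immune markers, with none at Ptprc, Cd3e or Csf1r. The immune markers with such peaks were Itgam and Cd68, which gave all of the immune sum. That sum was 40.1 to 45.8 CPM in AA, 39.8 to 43.7 CPM in PGE2 and 34.4 to 36.2 CPM in Vehicle, higher in both treated groups. The stromal sum was 13.9 to 15.7, 15 to 16.8 and 15.9 to 16.5 CPM in the same groups, and the endothelial sum 4.89 to 5.42, 5.34 to 6.87 and 5.34 to 6.28 CPM. The part of other cells in the results below was not tested, and in bulk samples fewer cells of a type and less open chromatin per cell cannot be told apart.

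AA was set against Vehicle to ask where chromatin at these genes opened or closed with the fatty acid. Of the 34 peaks, 14 rose with AA (41.2%) at an adjusted p under 0.05 in edgeR's quasi-likelihood test, against 16.7% of all 89347 tested peaks. They were 4 of 7 at Plaur, 1 of 6 at Plau, 3 of 6 at Plat and 6 of 15 at Cd44. None of the 34 fell in edgeR, where 13.8% of all peaks did, and 0 were lower in DESeq2 or at an unadjusted p under 0.05. The median log2 change was 0.36 over the 34 peaks and -0.016 over all tested peaks. Both AA libraries lay above both Vehicle libraries at 22 peaks and below them at 4, where 32.4% and 32.9% of all peaks did so. DESeq2 called 9 of the 34 higher and gave 4 of them no adjusted p, against 6.92% called among all peaks to which it gave one.

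PGE2 against Vehicle asked the same of the prostaglandin. It gave 6 of 34 peaks higher (17.6%, against 14.3% of all peaks): 1 at Plaur, 1 at Plau and 4 at Cd44. None fell in edgeR, against 10.6% of all peaks, and 0 were lower in DESeq2 or at an unadjusted p under 0.05. The share that rose was near that of all peaks. The median log2 change was 0.13, against -0.0022 over all peaks. Libraries of the 2 groups did not overlap at 15 peaks higher and 4 lower, where 31.1% and 29.9% of all peaks were so placed. DESeq2 called 2 of the 34 higher and gave 6 of them no adjusted p, against 7.58% called among all peaks to which it gave one. In edgeR the count of 6 was 3 without Vehicle replicate 2. When peaks at gene ends and all others were scaled separately, the counts were 7 higher and 2 lower.

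AA and PGE2 were then set against each other, at doses that differ (25 µM and 50 nM). More open with AA than with PGE2 were 5 of 34 peaks (14.7%, against 5.06% of all peaks): 3 at Plaur, 1 at Plat and 1 at Cd44. None were lower in edgeR, against 4.88% of all peaks, or in DESeq2, and 2 were lower at an unadjusted p under 0.05. DESeq2 called 2 of the 34 higher and gave 18 of them no adjusted p, against 0.632% called among all peaks to which it gave one. The libraries of these groups did not overlap at 18 peaks higher with AA and 5 lower, where 25.6% and 26.4% of all peaks were so placed.

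**Figure D1:**
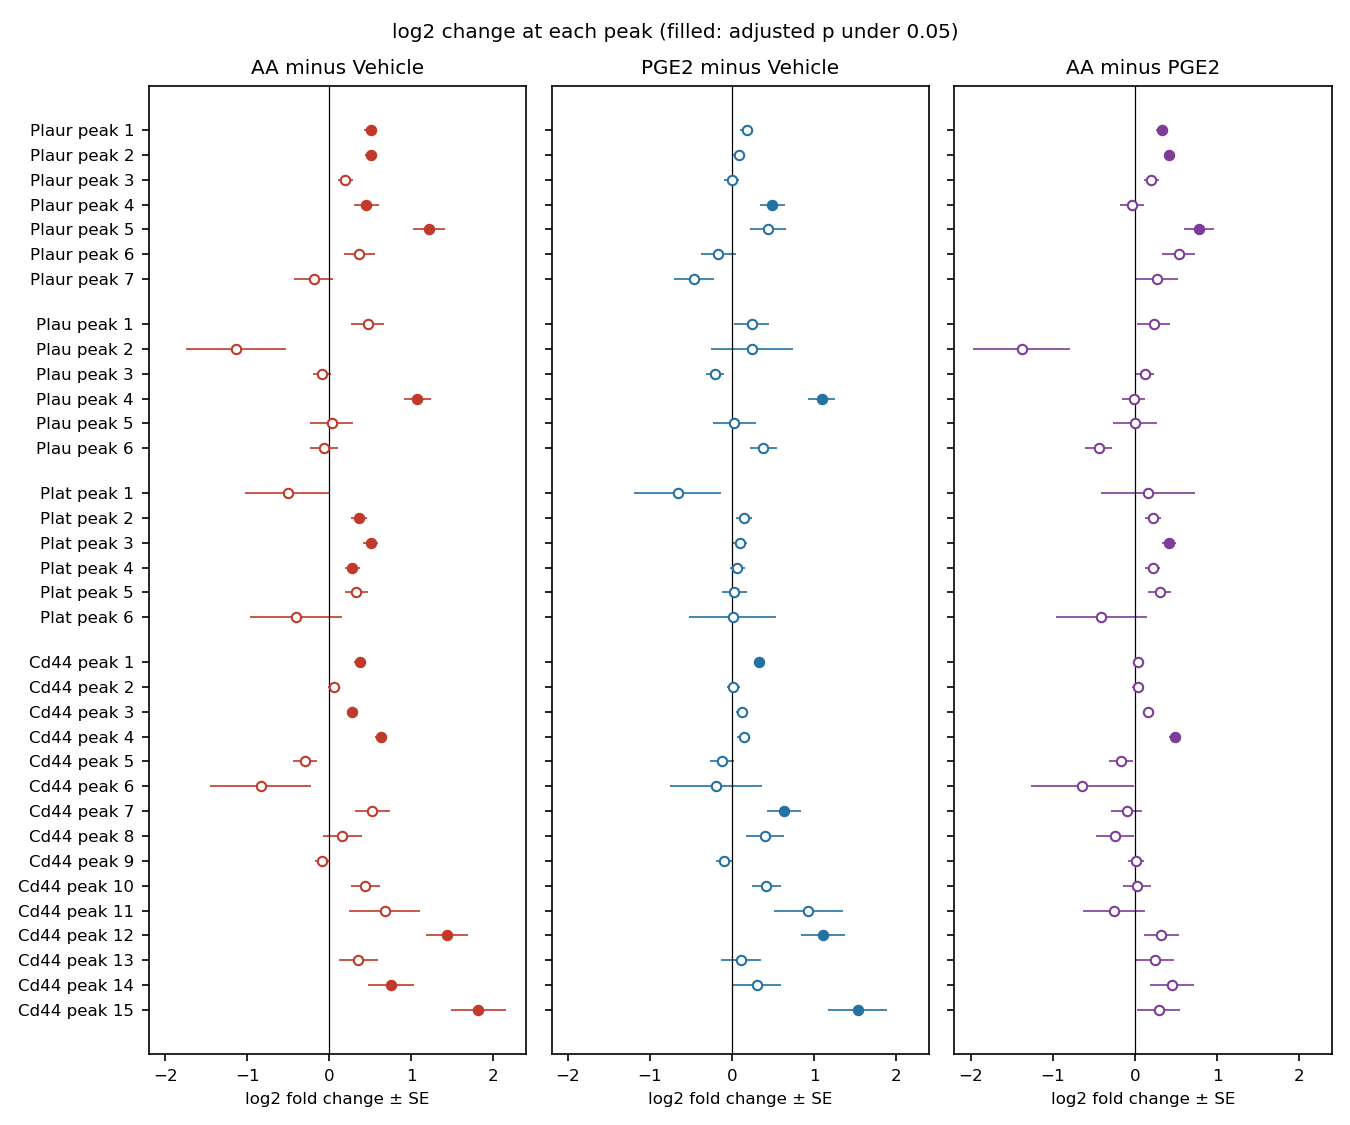
Log2 fold change (x axis, point and SE bar) of each of the 34 peaks, numbered along the chromosome within each gene, for AA minus Vehicle, PGE2 minus Vehicle and AA minus PGE2, with filled points for an adjusted p under 0.05. The left panel holds 14 filled points, the middle 6 and the right 5, and all of them lie to the right of 0.

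Summed over the peaks of a gene, Plaur, Plat and Cd44 were more open with AA than with Vehicle, and more open with AA than with PGE2. The sums were scaled apart from the single peaks, to the counts of all peaks assigned to genes, so summed CPM and peak CPM are on different scales. The sums of 16.3% of 16762 genes rose with AA and 20.8% rose with PGE2, and 8.7% were higher with AA than with PGE2. Plaur had 165.0 and 162.8 summed CPM in AA, 130.4 and 122.2 in PGE2, and 123.5 and 121.0 in Vehicle. The AA libraries stood apart from the other 4, and those of PGE2 and Vehicle overlapped. Against Vehicle the Plaur sum was 1.34-fold higher with AA (log2 0.42, SE 0.042, edgeR adjusted p = 8.33e-07). With PGE2 its log2 difference from Vehicle was 0.047 (95% interval -0.045 to 0.14, edgeR adjusted p = 0.422). The log2 difference of AA from PGE2 was 0.38 (SE 0.042, edgeR adjusted p = 3.21e-05).

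Plat had 111.2 and 107.0 summed CPM in AA, 86.1 and 88.2 in PGE2, and 83.6 and 88.5 in Vehicle, again with AA apart from the rest. Its sum rose 1.27-fold with AA (log2 0.34, SE 0.051, edgeR adjusted p = 4.87e-05). The PGE2 difference from Vehicle was 0.019 on the log2 scale (95% interval -0.09 to 0.13, edgeR adjusted p = 0.797). AA exceeded PGE2 at Plat by 0.33 on the log2 scale (SE 0.05, edgeR adjusted p = 0.0004).

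Cd44 had 291.3 and 282.1 summed CPM in AA, 259.2 and 250.4 in PGE2, and 232.6 and 243.4 in Vehicle. The 3 groups did not overlap, with AA highest and Vehicle lowest. The Cd44 sum rose with AA (log2 0.27, SE 0.034, edgeR adjusted p = 9.42e-06) and by less with PGE2 (log2 0.098, SE 0.034, edgeR adjusted p = 0.0297), and AA was above PGE2 (log2 0.17, SE 0.033, edgeR adjusted p = 0.00225). The rise with PGE2 was not called in DESeq2 (adjusted p = 0.147) or when Vehicle replicate 1, AA replicate 1, AA replicate 2 or PGE2 replicate 1 was left out (log2 0.063 to 0.095). AA against PGE2 was not called without AA replicate 1 (log2 0.16, adjusted p = 0.0543). Both the AA rise and that difference were also not called over peaks within 10 kb of a gene end alone, as given under the processing. That limit left out, among others, peaks 3 and 4, whose centres lie inside the gene, 15066 and 17213 bp from its nearer end.

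Plau had 42.4 and 43.4 summed CPM in AA, 41.3 and 43.9 in PGE2, and 40.0 and 37.0 in Vehicle. Its sum did not pass the test with AA (log2 0.16, 95% interval -0.007 to 0.32, edgeR adjusted p = 0.133) or with PGE2 (log2 0.15, 95% interval -0.014 to 0.31, edgeR adjusted p = 0.14). AA and PGE2 differed by 0.008 on the log2 scale (95% interval -0.15 to 0.17). Without its gene-end peak, which held 34.7% to 49.5% of the gene's counts, the Plau sum was called higher with AA (log2 0.40) and with PGE2 (log2 0.54). That sum was scaled anew and still held peak 4, the only called peak of the gene. Peak 4 had 21.9% and 25.6% of all Plau counts in AA, 26.1% and 20.8% in PGE2, and 11.6% and 13.8% in Vehicle.

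**Figure D2:**
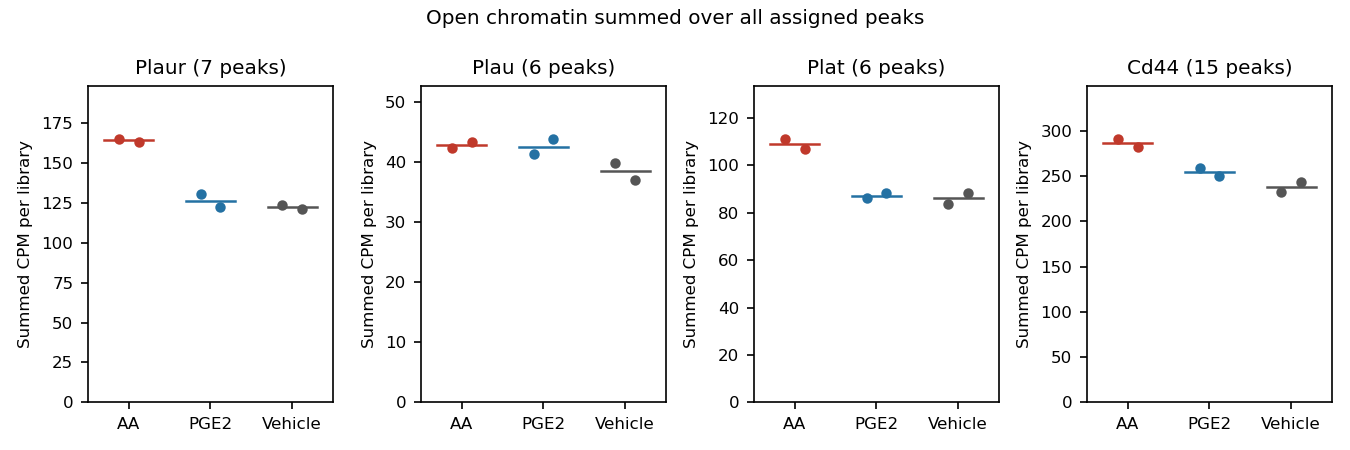
Summed CPM over all peaks of Plaur, Plau, Plat and Cd44 (y axis from 0) in each library (points) of AA, PGE2 and Vehicle, with bars at the mean of 2 libraries. The AA libraries of Plaur, at 165.0 and 162.8, and of Plat, at 111.2 and 107.0, stand above the other 4 libraries, while AA and PGE2 of Plau lie together.

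Plaur, the urokinase receptor, had its 2 largest peaks by CPM upstream of the RefSeq start site. Peak 1 (chr7:24459466-24460162, 697 bp) lay outside the gene with its centre 1123 bp from the annotated gene end. Its CPM was 42.3 and 41.5 in AA, 33.9 and 33.0 in PGE2, and 30.6 and 28.6 in Vehicle. All AA libraries exceeded all others, and PGE2 lay between. It rose 1.42-fold with AA (log2 0.50, SE 0.075, edgeR adjusted p = 9.34e-07), and AA exceeded PGE2 (log2 0.33, edgeR adjusted p = 0.00268, not called in DESeq2 at 0.15). With PGE2 its log2 change was 0.18 (95% interval 0.019 to 0.33, edgeR adjusted p = 0.0931).

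Peak 2 (chr7:24461268-24462165, 898 bp) had its centre at -766 bp from that start site, inside the annotated extent of the gene, which begins farther upstream. It had 48.9 and 49.9 CPM in AA, 36.6 and 37.4 in PGE2, and 34.3 and 35.4 in Vehicle. AA was again the highest group. The peak rose 1.42-fold with AA (log2 0.50, SE 0.07, edgeR adjusted p = 2.03e-07). With PGE2 the log2 change was 0.084 (95% interval -0.062 to 0.23), and AA exceeded PGE2 by 0.42 on the log2 scale (SE 0.069, edgeR adjusted p = 7.08e-05).

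The peak over the start site itself, peak 3 (chr7:24462309-24462861), which holds most of the promoter printed above, passed no test. Its log2 change was 0.20 with AA (95% interval 0.014 to 0.38, edgeR adjusted p = 0.0962) and -0.004 with PGE2 (95% interval -0.19 to 0.18). The ratio of peak 2 to peak 3 was 1.86 and 1.99 in AA, 1.55 and 1.77 in PGE2, and 1.48 and 1.63 in Vehicle. Peaks 2 and 3 lie next to each other, and a read pair that touches both was counted in each.

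Inside the gene, peak 5 (chr7:24470347-24470874) had the largest log2 change with AA. Its CPM was 7.32 and 6.93 in AA, 5.19 and 3.09 in PGE2, and 2.99 and 3.13 in Vehicle. The AA libraries were the highest, and the PGE2 pair was split, with replicate 2 among the Vehicle values. The peak rose 2.33-fold with AA (log2 1.22, SE 0.20, edgeR adjusted p = 3.47e-06). Its log2 difference of AA from PGE2 was 0.78 (SE 0.18, edgeR adjusted p = 0.00339), but 0.46 without PGE2 replicate 2 and 0.75 without AA replicate 1 (adjusted p = 0.168 and 0.0619). DESeq2 gave this difference no adjusted p.

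Peak 4 of Plaur (chr7:24465335-24465596), also inside the gene, moved with both agents. It had 7.74 and 8.08 CPM in AA, 7.63 and 8.57 in PGE2, and 6.13 and 5.42 in Vehicle, so that AA and PGE2 overlapped above Vehicle. The log2 change was 0.45 with AA (SE 0.15, edgeR adjusted p = 0.0199) and 0.49 with PGE2 (SE 0.15, edgeR adjusted p = 0.0142), and AA differed from PGE2 by -0.036 (95% interval -0.32 to 0.25). DESeq2 did not call either rise (adjusted p = 0.263 with AA and 0.237 with PGE2). Nor did edgeR without Vehicle replicate 2 (adjusted p = 0.167 and 0.147), the AA rise without either AA replicate (adjusted p = 0.0582 and 0.0983), or the PGE2 rise without PGE2 replicate 2 (adjusted p = 0.127). Peaks 6 and 7, toward the other end of the gene, passed no test, with log2 changes of 0.37 and -0.19 with AA and -0.17 and -0.46 with PGE2.

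Plau, which encodes urokinase, had 1 called peak, which was distal. Peak 4 (chr14:20850378-20851064, 687 bp) lay outside the gene with its centre 7333 bp past the gene's upper coordinate. Its CPM was 7.88 and 9.46 in AA, 9.31 and 8.10 in PGE2, and 3.91 and 4.27 in Vehicle. The libraries of AA and PGE2 overlapped, and every one of them exceeded both of Vehicle. It rose 2.11-fold with AA (log2 1.08, SE 0.17, edgeR adjusted p = 1.44e-06) and 2.13-fold with PGE2 (log2 1.09, SE 0.17, edgeR adjusted p = 1.83e-06). AA and PGE2 differed by -0.014 on the log2 scale, with a 95% interval of -0.29 to 0.27.

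The gene-end peak of Plau, peak 3 (chr14:20836213-20837136), had 15.8 and 13.9 CPM in AA, 13.9 and 13.5 in PGE2, and 16.6 and 15.0 in Vehicle. AA overlapped Vehicle and both PGE2 libraries lay below it. The log2 change was -0.086 with AA (95% interval -0.31 to 0.13, edgeR adjusted p = 0.588) and -0.21 with PGE2 (95% interval -0.43 to 0.015, edgeR adjusted p = 0.174). With gene-end peaks scaled separately the PGE2 change was -0.38 (edgeR adjusted p = 0.00701). The distal peak 4 had 0.498 and 0.682 times the counts of this peak in AA, 0.67 and 0.6 times in PGE2, and 0.235 and 0.284 times in Vehicle. The other 4 Plau peaks passed no test, with log2 changes of -1.14 to 0.47 with AA and 0.028 to 0.38 with PGE2. The lowest of these, peak 2, rested on 6 and 4 counts in AA, 8 and 18 in PGE2, and 14 and 8 in Vehicle.

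Plat, which encodes tPA, had its called peaks together at and before its lower coordinate. Peak 3 (chr8:22752777-22753607, 831 bp) had its centre 4530 bp outside the gene. It had 33.5 and 32.3 CPM in AA, 24.8 and 24.6 in PGE2, and 20.8 and 25.6 in Vehicle. AA stood above both other groups, and the PGE2 values fell within the Vehicle range. The peak rose 1.42-fold with AA (log2 0.51, SE 0.089, edgeR adjusted p = 1.75e-05), and AA exceeded PGE2 (log2 0.41, SE 0.088, edgeR adjusted p = 0.00149, not called in DESeq2 at 0.107). The PGE2 change from Vehicle was 0.091 on the log2 scale (95% interval -0.096 to 0.28).

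Peak 2 of Plat (chr8:22744622-22745511), 12656 bp from the gene, had 22.5 and 21.5 CPM in AA, 18.6 and 19.3 in PGE2, and 17.6 and 16.6 in Vehicle. The groups did not overlap, in the order AA, PGE2, Vehicle. Its rise with AA was 0.36 on the log2 scale (SE 0.097, edgeR adjusted p = 0.00345), and the PGE2 change was 0.15 (95% interval -0.055 to 0.35). The gene-end peak 4 (chr8:22757227-22757857) had 27.4 and 28.0 CPM in AA, 22.7 and 25.0 in PGE2, and 23.6 and 22.0 in Vehicle, with AA highest and the others overlapping. It was called with AA (log2 0.28, SE 0.089, edgeR adjusted p = 0.0131). Neither rise was called in DESeq2 (adjusted p = 0.129 for peak 2 and 0.223 for peak 4) or without Vehicle replicate 2 (adjusted p = 0.0601 and 0.153), nor peak 4 without AA replicate 2 (adjusted p = 0.0851).

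The ratio of Plat peak 3 to peak 4 was 1.22 and 1.15 in AA, 1.09 and 0.985 in PGE2, and 0.88 and 1.17 in Vehicle, and overlapped between AA and Vehicle. Peak 5, inside the gene, had a log2 change of 0.33 with AA (95% interval 0.045 to 0.62, edgeR adjusted p = 0.072) and 0.028 with PGE2. Peaks 1 and 6 had 5 to 16 counts in a library and passed no test. Peak 6 was almost as near to Ap3m2, at 2338 bp, as to Plat, at 2168 bp. With PGE2, 0 of the 6 Plat peaks were called by edgeR or DESeq2, and 0 had an unadjusted p under 0.05.

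**Figure D3:**
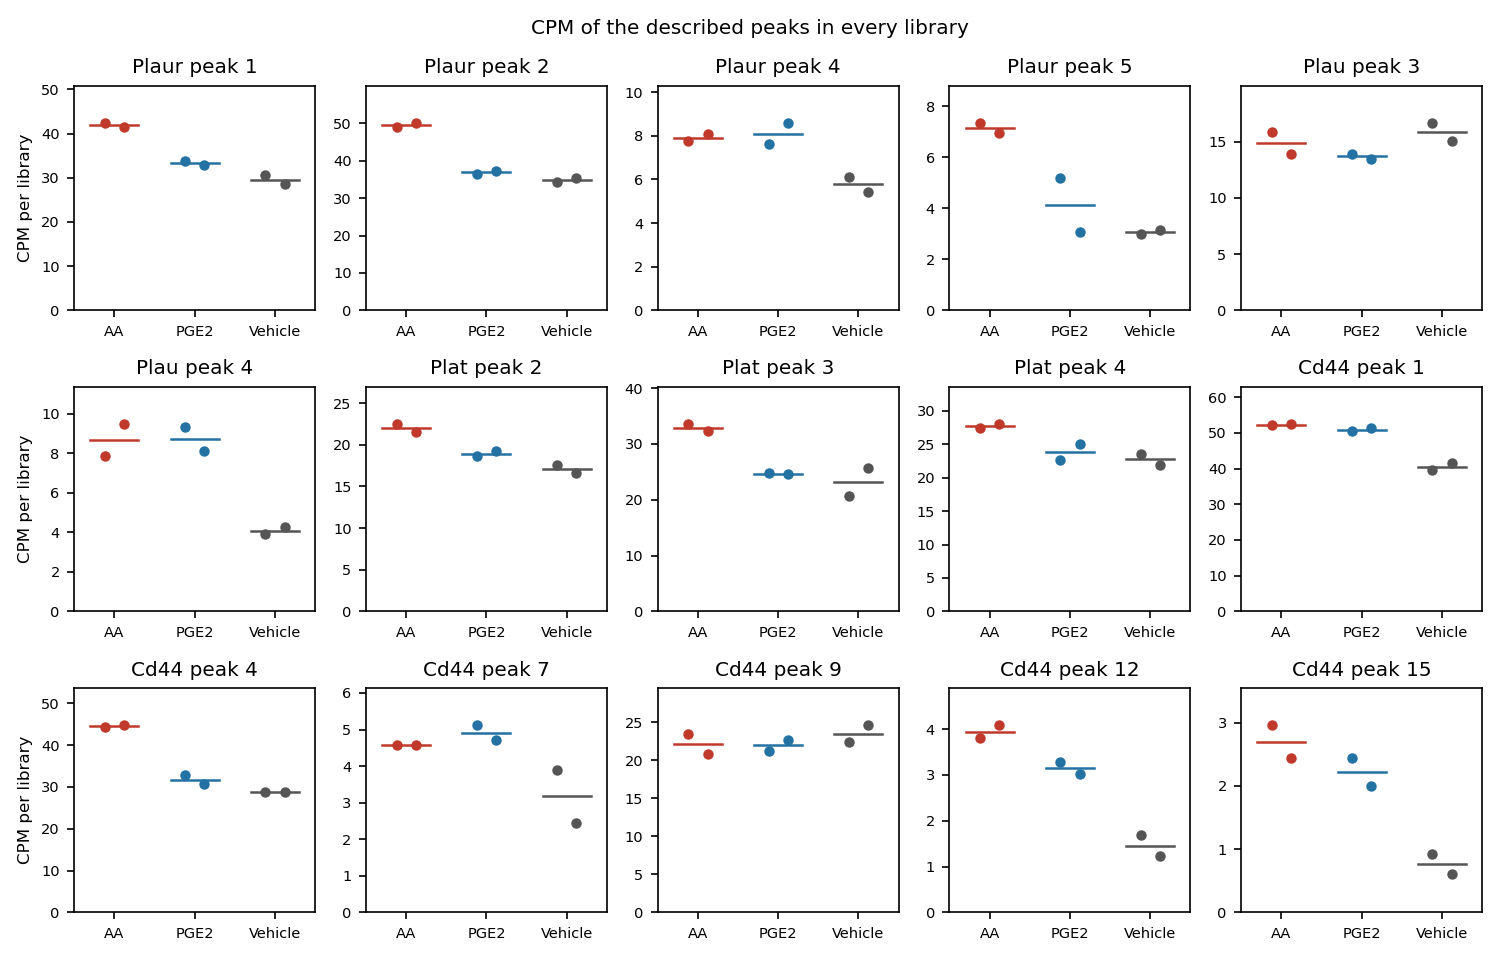
CPM (y axis from 0, its range set for each panel) of 15 peaks of Plaur, Plau, Plat and Cd44 in each library (points), with bars at the mean of 2 libraries, for AA, PGE2 and Vehicle. At Plaur peak 2 AA stands alone, at 48.9 and 49.9, while at Plau peak 4 AA and PGE2 lie together between 7.88 and 9.46, above Vehicle at 3.91 and 4.27.

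Cd44, on the minus strand, had peaks on both sides of its start site and along the whole gene. The peak that holds the RefSeq start site, peak 9 (chr2:102900511-102901792, 1282 bp), had 23.4 and 20.8 CPM in AA, 21.2 and 22.7 in PGE2, and 22.4 and 24.6 in Vehicle. All 3 groups overlapped. Its log2 change was -0.084 with AA (95% interval -0.27 to 0.11, edgeR adjusted p = 0.535) and -0.099 with PGE2 (95% interval -0.29 to 0.09, edgeR adjusted p = 0.491). With gene-end peaks scaled separately the PGE2 change was -0.27 (edgeR adjusted p = 0.0231).

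Upstream of the start site, 2 peaks with few counts rose with both agents. Peak 12 (chr2:102932728-102933305), with its centre at -31352 bp, had 3.80 and 4.08 CPM in AA, 3.28 and 3.01 in PGE2, and 1.69 and 1.22 in Vehicle. Every treated library exceeded both of Vehicle. It rose 2.70-fold with AA (log2 1.43, SE 0.26, edgeR adjusted p = 2.31e-05) and 2.16-fold with PGE2 (log2 1.11, SE 0.27, edgeR adjusted p = 0.00171), the second not called in DESeq2 (adjusted p = 0.0629) or without Vehicle replicate 2 (log2 0.90, adjusted p = 0.0549).

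Peak 15 (chr2:102948591-102948967), at -47114 bp from the start site, held 42 and 30 counts in AA, 32 and 26 in PGE2, and 12 and 8 in Vehicle. In CPM these were 2.96 and 2.45, 2.44 and 2.01, and 0.919 and 0.61. Its rise was the largest among the 34 peaks with either agent, 3.52-fold with AA (log2 1.82, SE 0.34, edgeR adjusted p = 4.23e-05) and 2.89-fold with PGE2 (log2 1.53, SE 0.36, edgeR adjusted p = 0.001). DESeq2 called it with AA (adjusted p = 0.00781) and gave it no adjusted p with PGE2. AA and PGE2 differed by 0.29 at peak 15 (95% interval -0.25 to 0.82) and by 0.32 at peak 12 (95% interval -0.11 to 0.75) on the log2 scale. Peak 15 was also the last one inside the limit of 50 kb. The next peak out, at chr2:102959274-102959951 and 57944 bp from the gene, had 2.60 and 2.61 CPM in AA, 2.67 and 1.47 in PGE2, and 2.76 and 2.44 in Vehicle.

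Downstream, inside Cd44 and toward its 3' end, peak 4 (chr2:102827941-102828767) set AA apart from PGE2. Its CPM was 44.3 and 44.7 in AA, 32.8 and 30.6 in PGE2, and 28.9 and 28.7 in Vehicle. The groups did not overlap, and PGE2 lay nearer to Vehicle than to AA. The peak rose 1.55-fold with AA (log2 0.63, SE 0.075, edgeR adjusted p = 7.15e-09), and AA exceeded PGE2 by 0.49 on the log2 scale (SE 0.074, edgeR adjusted p = 2.48e-05). The PGE2 change from Vehicle was 0.14 (95% interval -0.017 to 0.30). Its ratio to the start-site peak was 1.89 and 2.15 in AA, 1.55 and 1.35 in PGE2, and 1.29 and 1.17 in Vehicle.

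Beyond the 3' end, peak 1 (chr2:102805590-102806732) rose with both agents. It had 52.3 and 52.4 CPM in AA, 50.4 and 51.3 in PGE2, and 39.5 and 41.4 in Vehicle, with both treated groups above Vehicle. The log2 change was 0.37 with AA (SE 0.066, edgeR adjusted p = 2.13e-05) and 0.33 with PGE2 (SE 0.067, edgeR adjusted p = 0.000175), and AA differed from PGE2 by 0.041 (95% interval -0.089 to 0.17).

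Peak 7 of Cd44 (chr2:102878543-102879000), inside the gene, had 4.57 and 4.57 CPM in AA, 5.11 and 4.71 in PGE2, and 3.91 and 2.44 in Vehicle. Vehicle was lowest, and its libraries were farther apart than those of the other groups. The peak was called with PGE2 (log2 0.63, SE 0.21, edgeR adjusted p = 0.0202) and had a log2 change of 0.53 with AA (95% interval 0.11 to 0.95, edgeR adjusted p = 0.0507). The PGE2 call was lost in DESeq2 (adjusted p = 0.258), without Vehicle replicate 2 (log2 0.33, adjusted p = 0.369) and without PGE2 replicate 1 (log2 0.57, adjusted p = 0.0898). The other 2 called Cd44 peaks, 3 and 14, rose with AA by 0.28 and 0.75 on the log2 scale (edgeR adjusted p = 0.0012 and 0.0369), and neither was called in DESeq2 (adjusted p = 0.104 and 0.32). Peak 14 was also not called without AA replicate 1, AA replicate 2, Vehicle replicate 1 or Vehicle replicate 2 (adjusted p = 0.179, 0.0795, 0.0544 and 0.251). The remaining 7 peaks passed no test, with log2 changes of -0.83 to 0.67 with AA and -0.19 to 0.93 with PGE2.

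**Figure D4:**
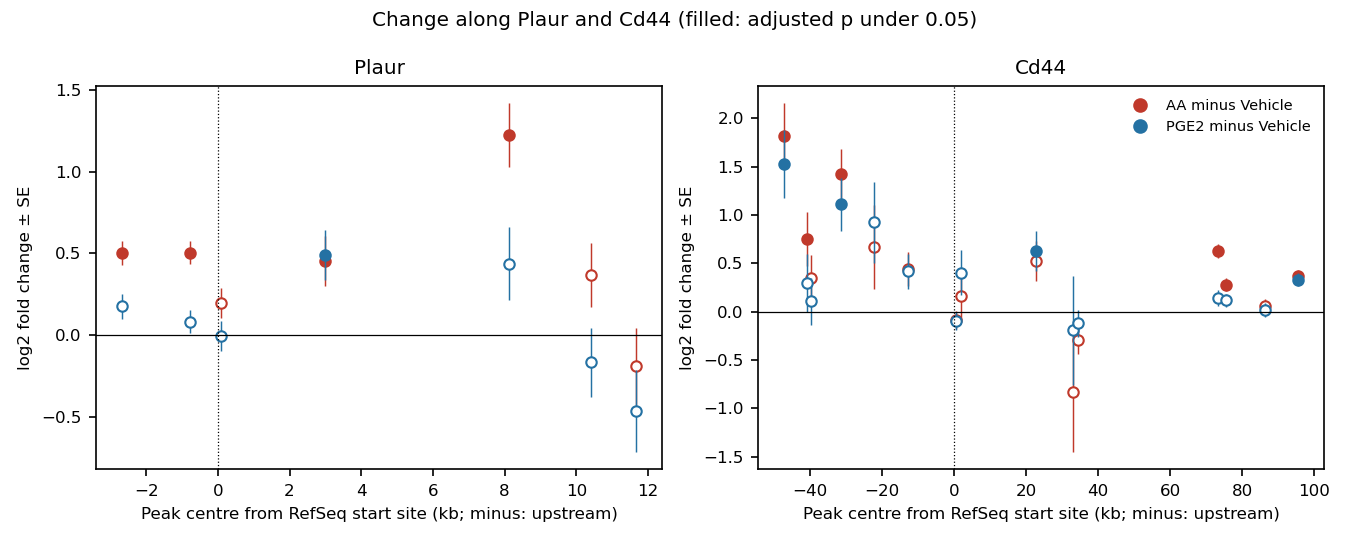
Log2 fold change with SE (y axis) of each Plaur and Cd44 peak against the distance of its centre from the RefSeq start site in kb (x axis, upstream negative, dotted line at 0), for AA minus Vehicle and PGE2 minus Vehicle, filled where adjusted p was under 0.05. At Cd44 the start-site peak lies near 0 with both agents and the peak farthest upstream is highest, at 1.82 with AA and 1.53 with PGE2, while at Plaur the AA points upstream of the start site lie at 0.50.

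Among the 4 genes the level at the start-site or gene-end peak, in mean CPM per kb of peak, was highest at Plaur (peak 3), with 46.5 in AA, 40.4 in PGE2 and 40.6 in Vehicle. Plat (peak 4) was close to it, with 43.9 in AA, 37.8 in PGE2 and 36.1 in Vehicle. Cd44 (peak 9) had 17.3 in AA, 17.1 in PGE2 and 18.3 in Vehicle, and Plau (peak 3) had 16.1 in AA, 14.8 in PGE2 and 17.1 in Vehicle. These were start-site peaks at Plaur and Cd44 and gene-end peaks at Plat and Plau. Plaur and Plat thus had the more open of these peaks per kb in every group, and Plau and Cd44 lay close to each other. The gene-end peak of Plaur, peak 2, had 55.03 CPM per kb in AA, 41.15 in PGE2 and 38.81 in Vehicle. The order depended on peak width. In mean CPM not divided by width, Cd44 peak 9 (1282 bp) had 22.1 in AA, 22.0 in PGE2 and 23.5 in Vehicle. Plaur peak 3 (553 bp) had 25.7, 22.4 and 22.4 in the same groups.

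The likeness of 2 genes was taken as the root mean square difference of their summed log2 CPM, each centred over the 6 libraries, and was computed as a description with 9639 genes of at least 3 peaks. Plaur and Plat were the most alike among the 4 genes, at 0.0599, followed by Plat and Cd44 at 0.067. Plaur and Plau were the least alike, at 0.1655. Nearest to Plaur over all genes were Omp (0.0316), Ptprh, Add2, Gjc3 and Ina, and nearest to Plat were Tmc1 (0.0268), Mogat2, Ptprh, Ina and Nhej1. Nearest to Plau were Helq (0.0182), Ski, Sema6b, Cnnm2 and Ctdp1. Cd44 was nearest to Cdk2ap2 (0.0109), Ice2 and Ezr (0.0168), followed by Pcsk6 and Ahnak. Ezr encodes ezrin, which ties the tail of CD44 to the actin cortex.

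The partners of these genes were read as 4 lists. Among plasminogen activation and its inhibitors (76 tested peaks of 17 genes), 15 peaks rose and 6 fell with AA (19.7% and 7.89%, against 16.7% and 13.8% of all peaks). With PGE2, 9 rose and 2 fell (11.8% and 2.63%, against 14.3% and 10.6% of all peaks). The list's median log2 change was 0.057 with AA and -0.041 with PGE2. S100a10, a subunit of a plasminogen-binding surface complex, had 4 of 11 peaks higher with AA. Its leading peak had 15.1 and 14.9 CPM in AA, 10.8 and 9.80 in PGE2, and 5.82 and 6.49 in Vehicle (AA log2 1.28, edgeR adjusted p = 1.5e-10). A peak of Serpinb5, which encodes the serpin maspin, had 3.94 and 4.24 CPM in AA, 1.37 and 1.78 in PGE2, and 0.459 and 1.30 in Vehicle (AA log2 2.20, edgeR adjusted p = 2.54e-07).

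St14, which encodes the surface protease matriptase, rose at 2 of 7 peaks with AA and at 2 with PGE2. The St14 peak with the smallest p under AA had a log2 change of 0.71 (edgeR adjusted p = 1.75e-07). Under PGE2, the St14 peak with the smallest p was a gene-end peak, 611 bp from the end (log2 0.52, edgeR adjusted p = 4.15e-07). The matriptase inhibitors Spint1 and Spint2 also had gene-end peaks that rose with PGE2 in the common scaling. Separate scaling of gene-end peaks lowered the PGE2 change at each gene-end peak of Plaur, Plau, Plat and Cd44. At Plaur peak 2, for example, the log2 change went from 0.084 to -0.09. Single peaks of the lists were not read out under that scaling. The Spint1 peak had 34.6 and 35.3 CPM in AA, 43.7 and 48.3 in PGE2, and 25.3 and 23.7 in Vehicle (PGE2 log2 0.91, edgeR adjusted p = 1.04e-11). At Plg, the plasminogen gene, 0 of 6 peaks were called by edgeR or DESeq2 with either agent, and 0 had an unadjusted p under 0.05.

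Among uPAR co-receptors and clearance receptors (116 tested peaks of 13 genes), 30 peaks rose and 14 fell with AA (25.9% and 12.1%, against 16.7% and 13.8% of all peaks). With PGE2, 21 rose and 15 fell (18.1% and 12.9%, against 14.3% and 10.6% of all peaks). The median log2 change was 0.041 with AA and -0.015 with PGE2. Egfr, the EGF receptor, held the leading peak under both agents, with 8.16 and 9.38 CPM in AA, 4.58 and 5.40 in PGE2, and 1.53 and 1.07 in Vehicle. That peak rose by 2.74 on the log2 scale with AA (SE 0.22, edgeR adjusted p = 2.38e-13) and by 1.93 with PGE2 (SE 0.25, edgeR adjusted p = 7.52e-08). Egfr had 5 of 16 peaks higher and 2 lower with AA. Itgb6, an epithelial integrin subunit, had 7 of 12 peaks higher with AA, led by a log2 change of 1.29 (edgeR adjusted p = 3.42e-11). A peak of Met, the HGF receptor, rose by 1.76 on the log2 scale with AA (edgeR adjusted p = 2.66e-10), while the gene had 3 of 14 peaks higher and 3 lower. The integrin gene Itgav had 6 of 8 peaks higher with AA and 3 with PGE2, led under PGE2 by a log2 change of 0.75 (edgeR adjusted p = 9.89e-07). Itgb5 had 4 of 11 peaks lower with AA and 3 with PGE2, led under PGE2 by -0.87 (edgeR adjusted p = 3.52e-06). With AA, DESeq2 called 5 peaks at Egfr, 4 at Itgb6, and 2 each at Met, Itgav and Itgb5, in either direction.

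Matrix proteases and TIMPs (32 tested peaks of 8 genes) had 6 peaks higher and 5 lower with AA (18.8% and 15.6%), and 5 higher and 4 lower with PGE2 (15.6% and 12.5%), near the shares of all peaks (16.7% and 13.8% with AA, 14.3% and 10.6% with PGE2). The medians were -0.033 with AA and -0.039 with PGE2. A peak of Mmp14, a membrane-bound collagenase, had 5.49 and 4.41 CPM in AA, 4.96 and 4.48 in PGE2, and 2.14 and 1.602 in Vehicle. It rose with AA (log2 1.41, edgeR adjusted p = 4.17e-06) and with PGE2 (log2 1.33, edgeR adjusted p = 2.14e-05). In all, 2 of 4 Mmp14 peaks rose and 1 fell with AA, and 2 rose with PGE2. Of the inhibitor genes, Timp3 had 1 of 10 peaks higher and 2 lower with AA, and 1 higher and 3 lower with PGE2. Timp2 had 3 of 5 peaks higher with AA and 2 with PGE2, of which DESeq2 called 0.

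CD44 ligands, partners and sheddases (84 tested peaks of 17 genes) had 18 peaks higher and 11 lower with AA (21.4% and 13.1%, against 16.7% and 13.8% of all peaks). With PGE2, 13 were higher and 4 lower (15.5% and 4.76%, against 14.3% and 10.6% of all peaks). The medians were 0.047 with AA and 0.031 with PGE2. Ezr alone gave 9 of the 18 with AA and 6 of the 13 with PGE2, and DESeq2 called 7 Ezr peaks with AA and 1 with PGE2. Its gene-end peak had 30.4 and 31.1 CPM in AA, 43.1 and 44.2 in PGE2, and 25.6 and 26.2 in Vehicle (PGE2 log2 0.76, edgeR adjusted p = 3.98e-10). A peak near Slc7a11, the cystine transporter that CD44 variants stabilise, rose with AA (log2 0.41, edgeR adjusted p = 2.6e-05). Tiam1, an activator of Rac, had 3 of 8 peaks lower with AA, led by a log2 change of -0.61 (edgeR adjusted p = 2.25e-08). Lyve1, another hyaluronan receptor, had 3 of 5 peaks lower with AA and 2 with PGE2, led by a PGE2 change of -0.54 on the log2 scale (edgeR adjusted p = 2.21e-06). DESeq2 called 0 Lyve1 peaks with AA and 1 with PGE2, and 1 Tiam1 peak with AA. A gene-end peak of the splicing factor gene Esrp2 rose by 0.35 with PGE2 (edgeR adjusted p = 3.87e-05), and the gene had 1 of 7 peaks higher and 1 lower with AA. As at Spint1, the gene-end peaks of Ezr and Esrp2 were not read out under separate scaling of gene-end peaks.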

How the data were processed

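ATAC-seq was measured in 6 libraries. The deposited values are raw counts for each consensus peak, in 1 table for all libraries. Read pairs were counted by their 5′ ends with featureCounts 1.6.3, and once in every peak they overlapped, per the file headers. Trim Galore, BWA, Picard, SAMtools and MACS2 and build mm10 are named per the submitters' processing notes. Settings of these tools, and any shift of reads for the transposase, were not given in the sources used here. Regions outside the shared peak set gave no value.

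Each peak was given to the gene (protein-coding, RefSeq extents of GRCm38.p6) whose end was nearest to its centre within 50 kb, which placed 72328 peaks at 16827 genes. A peak may act on another gene than the nearest. A gene-end peak had its centre within 1 kb of either end. Start sites came from the RefSeq promoter table, and exon or intron positions were not used here.

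The test was edgeR 4.0.16 (quasi-likelihood F-test, robust, TMM scaling) in R 4.3.3, after filterByExpr removed 1476 peaks. All 6 libraries entered 1 fit by group, with 3 residual degrees of freedom. In the fit of peaks, the spread pooled over all peaks added a median of 42.3 prior degrees of freedom. P-values were Benjamini-Hochberg adjusted over all 89347 peaks or, for summed counts, over 16762 genes. Intervals are 95% and from that fit. DESeq2 1.42.0, other scalings, no filter, a replicate block, a limit of 10 kb, sums without gene-end peaks and each library left out were the alternatives. For CPM of peaks, library totals were multiplied by the TMM factors (0.969 to 1.02). Summed counts had a separate fit, with totals and TMM factors taken from the counts assigned to genes. Summed CPM are therefore larger than the peak CPM added up, and a summed log2 change can differ from what the peak CPM give.

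The genes, lists and tests were chosen with earlier results of these data known. Values in every library were given for gene-end peaks and for up to 4 called peaks per gene and comparison, those with the smallest p and an average log2 CPM of at least 0. From each list up to 3 genes per comparison with Vehicle were named, those with the called peak of smallest p. Plaur peak 3, Cd44 peaks 3 and 14 and Plg were added after their values were seen. Of the lists, 1 gene is not reported here by name.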

Additional observations from a re-analysis of the deposited data

How the results depend on the processing

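Peaks with few counts had the larger standard errors, such as Plau peak 2 (0.61, log2, with AA) and Cd44 peak 15 (0.34). The count of the 34 peaks called under AA against Vehicle was 9 in DESeq2, 8 within 10 kb of a gene end (fewer peaks by construction) and 10 to 16 with 1 library left out, and 0 were lower in each. Under PGE2 against Vehicle it was 2 in DESeq2, 3 within 10 kb and 3 to 6 with 1 library left out, and separate scaling of gene-end peaks gave 2 lower. AA against PGE2 gave 2 higher in DESeq2, 4 to 6 higher and 0 to 1 lower with 1 library left out. Where not stated, the cause was not tested.

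The labels do not say whether same-numbered libraries of different groups were paired. Deviations of same-numbered libraries correlated at 0.00469 (AA and Vehicle), -0.0198 (PGE2 and Vehicle) and 0.0357 (AA and PGE2). These values cannot settle the pairing, since much of the deviation between libraries of a group was sampling noise. With a replicate block the counts were again 14, 6 and 5 higher.

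The summed change of Plau was 0.40 with AA and 0.54 with PGE2 without gene-end peaks, both called, and that of Plaur with PGE2 was then 0.14, called. The Plau sum still held peak 4, the only called peak of that gene. Sums over fewer peaks were also scaled anew, so their changes reflect the scaling as well as the peaks left out, and the share of each was not tested. Cd44 within 10 kb of its ends changed by 0.13 with AA, 0.026 with PGE2 and 0.10 for AA against PGE2, none called, and its PGE2 change was 0.10 in DESeq2, not called. Plau for AA against PGE2 was -0.008 with library totals and -0.14 without gene-end peaks, and Plat with PGE2 was -0.036 within 10 kb. None of these 3 was called.

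With 1 library left out, where the lone library of a group is assumed to vary like the others, the summed log2 changes spanned as follows. Plaur with AA spanned 0.41 to 0.44, with PGE2 -0.001 (without PGE2 replicate 1) to 0.093, and AA against PGE2 0.33 to 0.42. Plat spanned 0.31 to 0.39 with AA, -0.024 (without Vehicle replicate 1) to 0.056 with PGE2, and 0.31 to 0.36 for AA against PGE2. Cd44 spanned 0.24 to 0.31 with AA, 0.063 to 0.13 with PGE2, and 0.15 to 0.20 for AA against PGE2. Plau spanned 0.10 to 0.22 with AA, 0.088 to 0.20 with PGE2, and -0.036 (without PGE2 replicate 1) to 0.053 for AA against PGE2, where it was -0.001 without AA replicate 2.

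Over the 4 lists, AA gave 69 peaks higher and 36 lower, with 33 and 9 in DESeq2 and 42 to 76 and 18 to 38 with 1 library left out. PGE2 gave 48 higher and 25 lower, with 22 and 7 in DESeq2, 38 lower with library totals, and 32 to 48 and 14 to 24 with 1 library left out. AA against PGE2 gave 25 higher and 12 lower, with 1 and 2 in DESeq2 and 13 to 26 and 6 to 16 with 1 library left out. The lowest of the higher counts came without Vehicle replicate 1 (AA) and without AA replicate 1 (AA against PGE2). The lists held 76, 116, 32 and 84 tested peaks. Of all tested peaks, 16.7% rose and 13.8% fell with AA, and 14.3% and 10.6% with PGE2. For AA against PGE2, 5.06% of all peaks were higher and 4.88% lower, and single lists had 0% to 9.48% higher and 0% to 5.95% lower. Over all peaks, AA gave 14911 higher and 12370 lower, with 6040 and 2951 in DESeq2.

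Of the results that answer a comparison, 263 values under alternatives kept their direction and side of the threshold or, for counts, stayed within 1.5 times. Another 24 counts differed by over 1.5 times, 9 calls were lost, 3 were gained and 7 changes turned sign. No scaling moved the median of all peaks by more than 0.045 (log2, library totals, PGE2).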

Other observations

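The genes beside Plaur, Plau, Plat and Cd44 were read out after the values above were seen, and are given as a description. Ap3m2, an adaptor protein gene 4506 bp from Plat, had a summed log2 change of 0.018 with AA (SE 0.047, edgeR adjusted p = 0.797), where Plat had 0.34. Ikbkb, the kinase gene on the other side of Plat, had -0.076 with AA (SE 0.1, edgeR adjusted p = 0.595). Slc1a2, a glutamate transporter gene 20357 bp from Cd44, fell by 0.39 on the log2 scale with AA (SE 0.062, edgeR adjusted p = 0.000122) and by 0.24 with PGE2 (SE 0.061, edgeR adjusted p = 0.00443). Pdhx, on the upstream side of Cd44 and 119386 bp from it, had -0.251 with AA (SE 0.109, edgeR adjusted p = 0.0862) and -0.059 with PGE2 (edgeR adjusted p = 0.692). Cadm4, an adhesion gene 6053 bp from Plaur, rose with AA (log2 0.37, SE 0.11, edgeR adjusted p = 0.0157) and with PGE2 (log2 0.57, SE 0.11, edgeR adjusted p = 0.000567), and had 2 peaks. On the other side of Plaur, Irgc1 rose by 0.26 with AA (SE 0.096, edgeR adjusted p = 0.0468) and had 0.19 with PGE2 (edgeR adjusted p = 0.123). Vcl, which encodes vinculin and lies beyond the distal peaks of Plau, rose by 0.18 with AA (SE 0.04, edgeR adjusted p = 0.00228). The other neighbour of Plau, Camk2g, had 0.013 with AA and 0.056 with PGE2 (edgeR adjusted p = 0.873 and 0.418).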
